A study of Arabidopsis thaliana with 6 samples.

Results

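A set of 10 genes of cell-surface immune sensing was followed in shoots of the Arabidopsis thaliana myc2 mutant and of the wild-type accession Col-0. They are 10 of the 28775 genes counted, and were taken by gene identifier as a set of known function. Earlier results of these data were known when the set was chosen. The set holds the danger-peptide receptors PEPR1 (AT1G73080) and PEPR2 (AT1G17750), the peptide precursors PROPEP1 (AT5G64900), PROPEP2 (AT5G64890) and PROPEP3 (AT5G64905), the pattern receptors FLS2 (AT5G46330), EFR (AT5G20480) and CERK1 (AT3G21630), the cytoplasmic kinase BIK1 (AT2G39660) and the coreceptor BAK1 (AT4G33430). Poly(A) RNA was sequenced from the aerial parts of 3 myc2 and 3 Col-0 samples. Both genotypes were seedlings of 2 weeks, kept at 22 °C in days of 16 h light and 8 h dark, with no treatment named. The mutant carries a lesion in MYC2, a transcription factor of jasmonate signalling, and was set against Col-0 to see which transcripts differ in level. The paper calls its RNA-seq replicates biological. The labels name neither the allele nor whether replicates were separate cultures. Each p-value thus covers the spread of these samples alone, part of which may be technical.

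Plants detect microbes and their own damage with receptor kinases at the cell surface. FLS2 binds bacterial flagellin, EFR binds bacterial elongation factor Tu, and CERK1, a LysM kinase, acts in the detection of chitin and peptidoglycan. PEPR1 and PEPR2 bind Pep peptides, which are cut from PROPEP precursors when cells are damaged. BAK1 joins FLS2, EFR and the PEPRs once their ligand is bound, and BIK1 passes the signal on inside the cell, for example to the oxidase RBOHD.

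Library totals ranged from 25439397 to 26597891 counts in myc2 and from 21165967 to 30604815 counts in Col-0. Levels are given as CPM, which are counts scaled to library size by trimmed means, and 1 read was worth 0.0366 to 0.0381 CPM in myc2 and 0.0344 to 0.0482 CPM in Col-0. By the prefix of their names in the file headers, the libraries fell into 3 groups: all myc2 libraries, Col-0 replicates 1 and 2, and Col-0 replicate 3. These groups are taken here as sequencing runs, which the sample labels do not name. No run held both genotypes, so effects of run and of genotype cannot be told apart. Between the Col-0 runs, 2950 genes differed, or 15.6% of those tested, but none of the 8 tested members did (edgeR adjusted p from 0.178 to 0.922, with replicate 3 assumed to vary like the other libraries). MYC2 itself (AT1G32640) had 71.2 ± 2.26 CPM in myc2, against 192 ± 15.5 CPM in Col-0 (SD, n = 3 each; log2 fold change -1.43, edgeR adjusted p = 2.94e-08). Its transcript was thus reduced and not absent. The summed level of 4 green-shoot markers was 37018 to 38546 CPM in myc2 and 39077 to 45384 CPM in Col-0. That of 6 root markers was at most 1.22 CPM in myc2 and 0.555 CPM in Col-0, with RHD6 and IRT1 at 0 reads in all libraries.

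MYC2 is known to bind the G-box, CACGTG, and its close variants, while the WRKY factors of pattern signalling bind the W-box, whose core is TTGAC. The 250 bases before the annotated start are shown for the 3 members whose level changed, since they are the sequences in which such motifs were looked for. They come from the RefSeq genome of build TAIR10.1, each on the plus strand and written toward the gene start: chr1:27483990-27484239 for PEPR1, chr1:6106073-6106322 for PEPR2 and chr5:18791325-18791574 for FLS2. Capitals mark CACNTG, where N is any base, and TTGAC, each read on both strands, so that GTCAA is a W-box core of the minus strand. Variants of the G-box that differ at other bases are neither marked nor counted. An example is AACGTG, near the end of the PEPR2 sequence and also before the start of BIK1, which is not among these 3 members.
PEPR1: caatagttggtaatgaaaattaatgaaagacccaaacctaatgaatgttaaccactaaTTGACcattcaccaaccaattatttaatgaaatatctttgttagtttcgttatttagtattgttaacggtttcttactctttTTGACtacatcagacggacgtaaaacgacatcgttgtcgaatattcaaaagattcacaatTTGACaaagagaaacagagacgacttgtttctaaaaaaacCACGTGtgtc
PEPR2: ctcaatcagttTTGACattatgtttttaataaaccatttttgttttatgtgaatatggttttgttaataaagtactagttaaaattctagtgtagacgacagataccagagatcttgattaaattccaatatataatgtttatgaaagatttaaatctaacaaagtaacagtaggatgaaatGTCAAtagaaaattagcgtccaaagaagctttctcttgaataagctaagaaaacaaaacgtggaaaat
FLS2: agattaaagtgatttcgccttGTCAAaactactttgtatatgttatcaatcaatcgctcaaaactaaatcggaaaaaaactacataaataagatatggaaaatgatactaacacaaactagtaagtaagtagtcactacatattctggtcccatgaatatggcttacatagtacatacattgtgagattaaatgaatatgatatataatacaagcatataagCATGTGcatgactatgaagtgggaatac
PEPR1 holds a full G-box whose first base lies 10 bases before the start, and W-box cores at 192, 110 and 50 bases before it. PEPR2 holds no CACNTG and has W-box cores at 239 and 68 bases before the start. FLS2 holds the variant CATGTG at 28 bases before the start and a W-box core at 229.

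In the same window with 50 further bases after the start, CACGTG was found in 1 of the 10 members, PEPR1, and in 7.68% of 27443 gene starts. CACNTG, which includes CACGTG, was found in 4 members, PEPR1, PROPEP1, PROPEP3 and FLS2, and in 30.6% of gene starts. TTGAC was found in all 10 members, with 1 to 4 copies each, and in 50.5% of gene starts. These matches describe the letters in the window and were not tested for binding.

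Both danger-peptide receptors fell in myc2, the pattern receptor FLS2 rose, and the other 5 tested members did not pass the test. FLS2 was 3.17-fold higher, PEPR2 2.23-fold lower and PEPR1 1.80-fold lower in myc2. PROPEP2 and PROPEP3 had too few reads to be tested. The 3 calls among 8 tested members stand beside 36.3% of all 18961 tested genes called in either direction. The 1 member called higher stands beside 17.6% of genes higher, and the 2 called lower beside 18.7% lower. The share of members called was therefore near the background. The median log2 fold change was 0.11 over the tested members and 0.01 over all tested genes, and the median of its absolute value was 0.21 over the members and 0.23 over all tested genes.

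**Figure D1:**
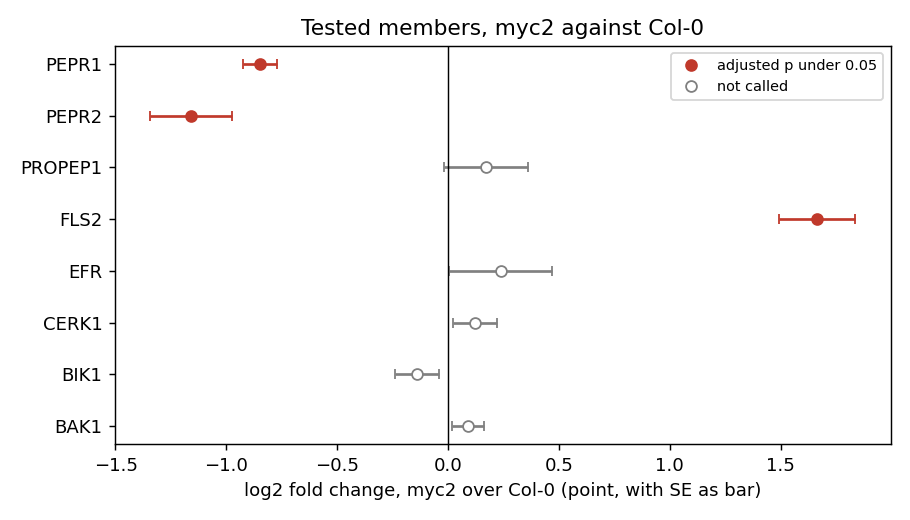
Log2 fold change of the 8 tested members (x axis, myc2 over Col-0, no unit), with bars of 1 standard error from the edgeR fit and filled points for adjusted p under 0.05. PEPR1 at -0.85 and PEPR2 at -1.16 lie left of 0 and FLS2 at 1.66 lies right of it, while the other 5 lie between -0.14 and 0.24.

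PEPR1 is the leucine-rich repeat receptor kinase first found to bind Pep peptides. It lies on chromosome 1 (27484240 to 27488204, plus strand, TAIR10.1), and no other annotated gene overlaps it. It had 22.6, 22.7 and 22.5 CPM in the myc2 libraries, against 38.0, 41.9 and 42.1 CPM in the Col-0 libraries. The 3 myc2 values lay close together and all below every Col-0 value. The mean was 22.6 ± 0.126 CPM in myc2 and 40.7 ± 2.35 CPM in Col-0 (SD, n = 3 each), or -0.85 on the log2 scale (SE 0.0754, edgeR adjusted p = 4.71e-06). Of all tested genes, 5.11% had a lower log2 fold change. In bulk RNA, fewer cells of a type and less RNA per cell cannot be told apart, here and for each gene that follows.

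PEPR2, a close relative that binds a subset of the Pep peptides, lies on the same chromosome (6106323 to 6110120, plus strand). Its reads were fewer, with 63, 50 and 69 counts in myc2 and 134, 84 and 158 counts in Col-0. Scaled, these were 2.38, 1.83 and 2.63 CPM in myc2, against 5.72, 4.05 and 5.44 CPM in Col-0. Again no myc2 library reached a Col-0 library, although the spread was wider than for PEPR1. The log2 fold change was -1.16 (SE 0.183, edgeR adjusted p = 0.000452), and 3.13% of tested genes had a lower one.

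The coding sequences of PEPR1 and PEPR2 are identical at 75.1% of aligned positions, and the longest run of bases their transcripts share is 32. No source used here says how reads matching more than 1 place were counted. PEPR1 had 9.48, 12.4 and 8.55 times the counts of PEPR2 in the myc2 libraries, against 6.64, 10.4 and 7.75 times in the Col-0 libraries. These ratios overlapped between the genotypes. The difference of their mean log2 ratios was 0.30 (3.31 ± 0.276 in myc2 and 3.01 ± 0.324 in Col-0, two-sided exact permutation p = 0.3, adjusted 0.4 over the 5 pairs compared). With 3 libraries a genotype, the smallest p that this exact test allows is 0.1. Summed, both receptors had 24.6 to 25.1 CPM in myc2 and 43.7 to 47.6 CPM in Col-0.

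**Figure D2:**
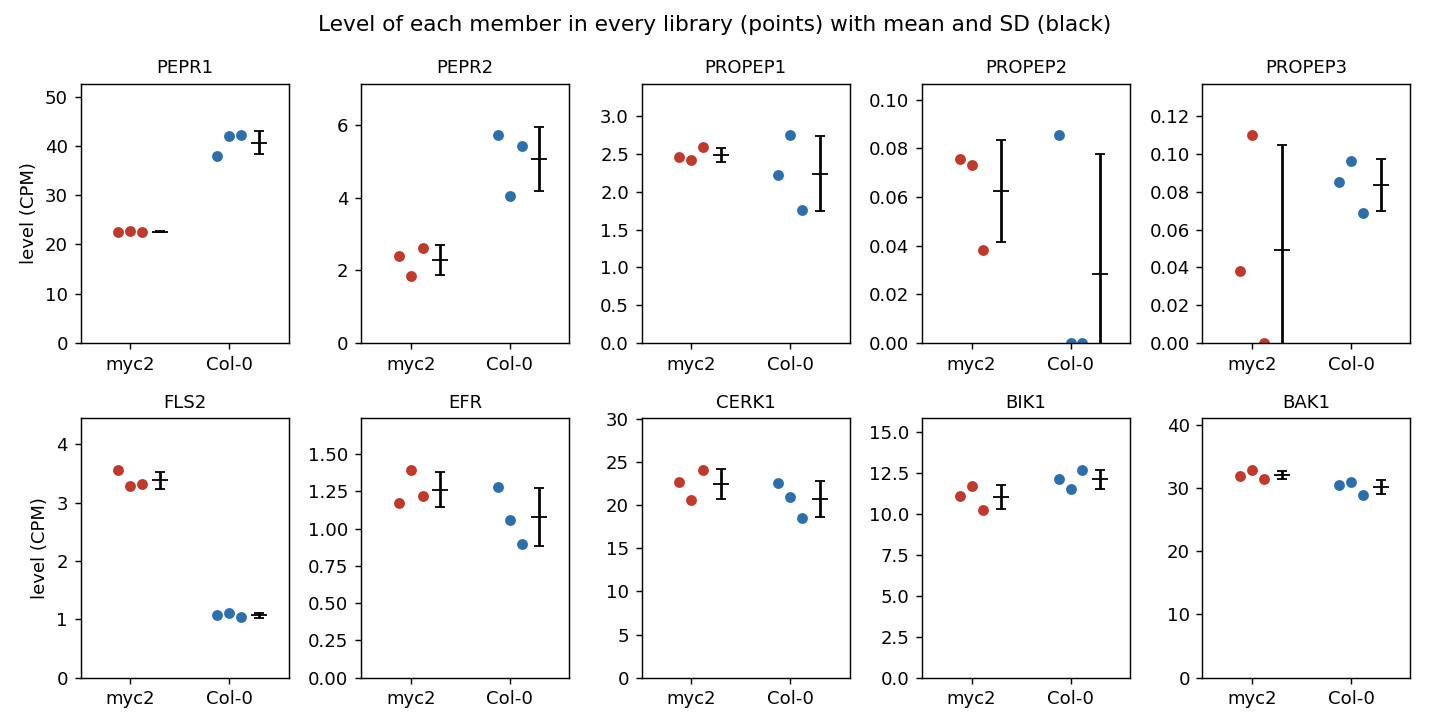
Level of each of the 10 members (y axis, CPM) in the 3 myc2 and 3 Col-0 libraries (points), with the mean and SD of each genotype, 1 panel a gene and each with its own axis. The libraries of the genotypes do not overlap for PEPR1, PEPR2, FLS2 and BAK1, and PROPEP2 and PROPEP3 stay near 0, where SD bars stop at the axis.

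Of the 3 precursors in the set, PROPEP1 was the most abundant. Outside the set, PROPEP5 and PROPEP6 were higher per exon length, with 14.1 and 5.54 RPKM in myc2 and 11.9 and 5.86 RPKM in Col-0, against 3.60 and 3.24 RPKM for PROPEP1. PROPEP1 had 2.46, 2.42 and 2.59 CPM in myc2, against 2.22, 2.75 and 1.76 CPM in Col-0. The Col-0 libraries lay on both sides of the myc2 libraries. The log2 fold change was 0.17 (SE 0.190, edgeR adjusted p = 0.514), so the standard error was as large as the difference.

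PROPEP2 and PROPEP3, the precursors of other Pep peptides, were at the edge of detection. PROPEP2 had 2, 2 and 1 reads in myc2, against 2, 0 and 0 reads in Col-0. The totals of 5 and 2 reads, scaled by library size, gave a myc2 to Col-0 ratio of 2.29 with an exact 95% interval of 0.375 to 24.0. A count of 0 allows up to 3 reads, or 0.145 CPM in Col-0 replicate 2 and 0.103 CPM in Col-0 replicate 3. PROPEP3 had 1, 3 and 0 reads in myc2, against 2, 2 and 2 reads in Col-0, a ratio of 0.611 (exact 95% interval 0.127 to 2.57). The 0 in myc2 replicate 3 allows up to 0.114 CPM. These intervals and limits cover counting error alone, and a difference in either precursor was not detectable at this depth.

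The 3 precursor genes lie in a row on the plus strand of chromosome 5, PROPEP2 at 25934568 to 25935612, PROPEP1 at 25937078 to 25938176 and PROPEP3 at 25939562 to 25940080 (TAIR10.1). Gaps of 1465 and 1385 bases separate them, and no stretch longer than 14 bases is shared between their transcripts. PROPEP1 had 199 reads over the myc2 libraries where PROPEP2 had 5 and PROPEP3 had 4. In Col-0 it had 160 reads where PROPEP2 had 2 and PROPEP3 had 6. The differences in their log2 ratios, myc2 minus Col-0, were -0.99 for PROPEP1 to PROPEP2, 1.17 for PROPEP1 to PROPEP3 and 2.16 for PROPEP2 to PROPEP3. They had two-sided exact permutation p-values of 0.2 to 0.4 (adjusted 0.4 each), on these few counts.

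FLS2, the flagellin receptor, rose in myc2. It lies on chromosome 5 (18791575 to 18795908, plus strand) and had 94, 90 and 87 counts in myc2, against 25, 23 and 30 counts in Col-0. Scaled, these were 3.56, 3.29 and 3.31 CPM in myc2, against 1.07, 1.11 and 1.03 CPM in Col-0. The lowest myc2 library was well above the highest Col-0 library, and both genotypes had a narrow spread. The log2 fold change was 1.66 (SE 0.173, edgeR adjusted p = 1.71e-05), and just 0.754% of all tested genes had a higher one.

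The end of FLS2 overlaps the gene RWA1 (AT5G46340), on the opposite strand, by 172 of its 4250 exon bases. No source used here gives the strand setting of the counting, so reads of that stretch cannot be assigned. RWA1 had 28.9 CPM in myc2 and 28.4 CPM in Col-0 (log2 fold change 0.02, edgeR adjusted p = 0.893). PEPR2 is likewise overlapped on the opposite strand by CSTF77 over 14 bases and by a pair of noncoding RNAs, AT1G05323 over 225 and AT1G05327 over 739 of its 3712 exon bases. CSTF77 had a log2 fold change of 0.06 (edgeR adjusted p = 0.610), and the noncoding RNAs were not counted separately.

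EFR, the receptor for elongation factor Tu and of the same receptor kinase class as FLS2, had 1.17, 1.39 and 1.22 CPM in myc2, against 1.28, 1.06 and 0.895 CPM in Col-0. The genotypes overlapped, and the log2 fold change was 0.24 (SE 0.233, edgeR adjusted p = 0.458). EFR lies on chromosome 5 (6921509 to 6925901, plus strand), and a noncoding RNA on the other strand, AT5G03135, overlaps 105 of its exon bases.

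FLS2 had 3.03, 2.37 and 2.72 times the counts of EFR in the myc2 libraries, against 0.833, 1.05 and 1.15 times in the Col-0 libraries. Every myc2 ratio was above every Col-0 ratio. The mean log2 ratio was 1.42 ± 0.176 in myc2 and 0.00 ± 0.236 in Col-0, a difference of 1.41 with a two-sided exact permutation p = 0.1, the smallest this design allows (adjusted 0.4 over 5 pairs). No outcome of this test could pass a threshold of 0.05 here, so the test does not decide whether the ratio differed.

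CERK1 (chromosome 3, 7615357 to 7618671, minus strand) had 22.7, 20.6 and 24.0 CPM in myc2, against 22.6, 20.9 and 18.5 CPM in Col-0. The ranges overlapped, and the low value of Col-0 replicate 3 lay outside the myc2 range. The log2 fold change was 0.12 (SE 0.0979, edgeR adjusted p = 0.359). Against Col-0 replicate 3 alone it was 0.28 with an adjusted p of 0.0375, the one setting of 16 in which CERK1 was called. That fit compares with a single library and takes its spread from the other groups.

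BIK1, the kinase that active receptor complexes phosphorylate and release, had 11.1, 11.7 and 10.2 CPM in myc2, against 12.2, 11.5 and 12.7 CPM in Col-0. Its log2 fold change was -0.14 (SE 0.0996, edgeR adjusted p = 0.307), with myc2 replicate 2 inside the Col-0 range. It lies on chromosome 2 (16531527 to 16533986, plus strand), and its transcript shares a run of 31 bases with that of its closest relative PBL1.

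BAK1 (chromosome 4, 16086311 to 16090832, minus strand) had the highest count level of the 10 in myc2. It had 31.9, 32.8 and 31.4 CPM in myc2, against 30.5, 30.9 and 28.9 CPM in Col-0. All myc2 libraries were above all Col-0 libraries, but by little. The log2 fold change, 0.09, did not pass the test (SE 0.0720, edgeR adjusted p = 0.362). With BAK1, the libraries of the genotypes did not overlap in 4 of the 8 tested members, beside 49.7% of all tested genes. BAK1 shares runs of up to 39 bases with other genes of its family, the longest with SERK4, at 82.0% coding identity, and AT4G33420 on the other strand overlaps 78 of its 2876 exon bases.

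None of the 5 tested members that missed the adjusted threshold had an unadjusted p under 0.05 in edgeR. DESeq2 and limma-voom each called the same number of members, 1 higher and 2 lower. These p-values do not show that the 5 genes were equal in both genotypes. Across the other settings their log2 fold changes ran from 0.01 to 0.50 for PROPEP1, 0.10 to 0.49 for EFR, 0.04 to 0.28 for CERK1, -0.20 to -0.09 for BIK1 and 0.06 to 0.15 for BAK1.

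RPKM, the CPM divided by exon length in kilobases, allow levels to be compared between genes and placed the members in a different order in each genotype. In myc2, BAK1 led with 11.1 ± 0.242 RPKM, followed by CERK1 with 10.3 ± 0.785, PEPR1 with 5.90 ± 0.0330, BIK1 with 5.54 ± 0.370 and PROPEP1 with 3.60 ± 0.132 RPKM. FLS2 with 0.797 ± 0.0345 RPKM came before PEPR2 with 0.615 ± 0.110 and EFR with 0.293 ± 0.0267 RPKM. In Col-0, PEPR1 led with 10.6 ± 0.613 RPKM, followed by BAK1 with 10.5 ± 0.365, CERK1 with 9.48 ± 0.952, BIK1 with 6.09 ± 0.289 and PROPEP1 with 3.24 ± 0.718 RPKM. PEPR2 with 1.37 ± 0.241 RPKM came before FLS2 with 0.252 ± 0.00896 and EFR with 0.250 ± 0.0449 RPKM (SD, n = 3 for all).

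Some neighbours in these orders had overlapping ranges over their libraries, which does not show that they were equal within a library. In myc2 these were BAK1 with CERK1, PEPR1 with BIK1, and PROPEP3 with PROPEP2. In Col-0 they were PEPR1 with BAK1, BAK1 with CERK1, and FLS2 with EFR. The range of PEPR1 thus overlapped that of the coreceptor BAK1 in Col-0 and that of BIK1 in myc2. FLS2 was at the low level of EFR in Col-0 and above every PEPR2 library in myc2. PROPEP2 and PROPEP3 were last in both genotypes, at 0.161 RPKM or less on average.

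**Figure D3:**
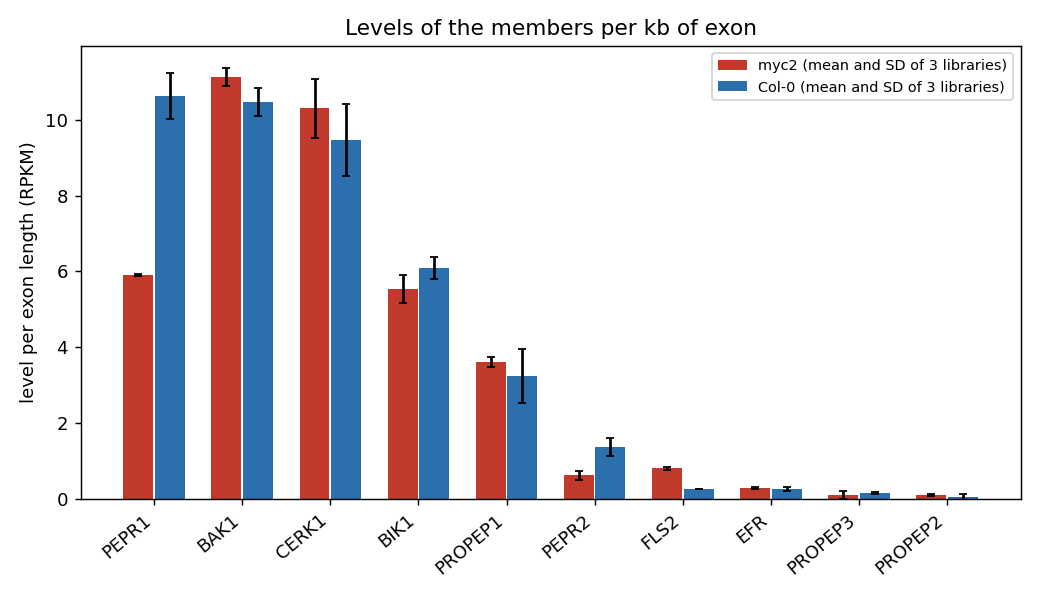
Level per exon length of the 10 members (y axis, RPKM, from 0), as the mean of 3 libraries with SD as the bar, myc2 left of Col-0 for each gene. PEPR1 drops to 5.90 in myc2 against 10.6 in Col-0, while BAK1, CERK1, BIK1 and PROPEP1 differ little between genotypes.

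Among all genes tested, PEPR1 ranked at percentile 40.9 of level in myc2 and 56.7 in Col-0. FLS2 ranked at percentile 9.02 in myc2 and 1.79 in Col-0, so its rise took place near the bottom of the tested range. PEPR2 ranked at percentile 6.92 in myc2 and 15.1 in Col-0.

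The 4 ligand-binding leucine-rich repeat receptors PEPR1, PEPR2, FLS2 and EFR share a simple gene structure of 2 exon blocks, where CERK1 and BAK1 have 12. Their direction did not follow this class, with both PEPRs lower, FLS2 higher and EFR not called. Of 5 tested neighbours of these 4 genes, 2 were called, PGDH and WRKY8, beside 36.3% of all tested genes. Next to PEPR1, AT1G73090 starts 12 bases away and had a log2 fold change of 0.06 (edgeR adjusted p = 0.754). Next to PEPR2, PGDH was higher with 0.43 (edgeR adjusted p = 0.00194). Beyond FLS2 and RWA1, WRKY8 was lower with -1.37 (edgeR adjusted p = 0.000277).

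The tested genes whose level over the 6 libraries was most like that of PEPR1 were AT1G70740, AT5G65470 and RIPK (AT2G05940), a cytoplasmic kinase. Their Pearson correlations with PEPR1, on log2(CPM + 0.5), were 0.9999, 0.9996 and 0.9991, as a description over libraries that share genotype and run. AT1G70740 had 10.6 CPM in myc2 and 17.9 CPM in Col-0. AT5G65470 had 64.1 CPM in myc2 and 117 CPM in Col-0, and RIPK had 36.1 CPM in myc2 and 79.1 CPM in Col-0.

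A list of 50 other genes that act with the members gave 46 tested genes, of which 11 were higher and 14 lower in myc2 and 21 were not called (5 of these had an unadjusted p under 0.05). Over all tested genes, 17.6% were higher and 18.7% lower. Its median log2 fold change was -0.08, beside 0.01 over all tested genes. RLP30 had no read, and PROPEP7, PROPEP8 and NHL10 had too few. In all, 12 of the 46 were called and changed at least 2-fold, beside 1242 of the 18961 genes tested. The list was chosen with earlier results of these data known, so these shares describe it and do not test it.

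Of the other peptide precursors, PROPEP4 was the one called among 3 tested. It had 0.388 ± 0.0510 CPM in myc2 and 1.21 ± 0.421 CPM in Col-0 (SD, n = 3 each), 3.01-fold lower with an edgeR adjusted p of 0.00384.

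Of 12 other pattern and peptide receptors tested, 3 were higher and 2 lower. LYK5, the main chitin-binding partner of CERK1, was 4.61-fold lower, at 3.82 ± 0.226 CPM in myc2 and 17.6 ± 1.47 CPM in Col-0 (edgeR adjusted p = 4.59e-08). LYK4, a related LysM protein of chitin sensing, was 2.85-fold higher, at 4.56 ± 0.222 CPM in myc2 and 1.57 ± 0.403 CPM in Col-0 (edgeR adjusted p = 6.06e-05). The 2 partners of CERK1 thus moved in opposite directions while CERK1 itself did not pass the test. LORE, a receptor for bacterial 3-hydroxy fatty acids, was 2.49-fold higher, at 24.8 ± 0.520 CPM in myc2 and 9.94 ± 1.05 CPM in Col-0 (edgeR adjusted p = 8.23e-07). MIK2 was also higher and RLP23 also lower.

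Of 8 coreceptors and their regulators, SOBIR1 fell and BIR3 rose. SOBIR1, the partner kinase of receptor-like proteins, had 33.1 ± 1.29 CPM in myc2 and 72.1 ± 3.45 CPM in Col-0, 2.18-fold lower (edgeR adjusted p = 2.10e-07). BIR3, a pseudokinase that holds BAK1 away from receptors, had 23.6 ± 1.51 CPM in myc2 and 19.8 ± 0.940 CPM in Col-0 (log2 fold change 0.25, edgeR adjusted p = 0.0347). The BAK1 relatives SERK1, SERK2, SERK4 and SERK5 were not called, with log2 fold changes from -0.24 to 0.22.

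Of 10 cytoplasmic kinases, their regulators and RBOHD, 3 were higher and 4 lower. CPK28, which promotes the turnover of BIK1, had 45.9 ± 1.53 CPM in myc2 and 109 ± 5.35 CPM in Col-0, 2.37-fold lower (edgeR adjusted p = 5.60e-08). RBOHD, the oxidase that BIK1 phosphorylates, had 88.4 ± 2.66 CPM in myc2 and 144 ± 4.67 CPM in Col-0, 1.62-fold lower (edgeR adjusted p = 3.34e-06). The higher genes were PBL1, PBL27 and BSK1, with log2 fold changes of 0.34 to 0.57. The other lower genes were XLG2 with -0.58 and PCRK1 with -0.47.

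Of 7 ubiquitin ligases that act on receptors, BIK1 or their signalling, 4 were lower and 1, PUB24, was higher. PUB23, a negative regulator of pattern responses, had 4.48 ± 0.485 CPM in myc2 and 22.8 ± 0.396 CPM in Col-0, 5.09-fold lower (edgeR adjusted p = 1.43e-08). PUB22, which acts together with it, was 2.43-fold lower (edgeR adjusted p = 2.50e-05). PUB25 and PUB26, which mark BIK1 for degradation, were the others.

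The genes listed as early markers of pattern responses did not move together, with 3 of 6 tested genes higher and 2 lower. No gene was placed both in this group and in the touch list below, whether or not it responds to both. PHI1 had 9.08 ± 0.868 CPM in myc2 and 80.9 ± 3.16 CPM in Col-0, 8.90-fold lower (edgeR adjusted p = 2.78e-10). AP2C1, a phosphatase of MAP kinases, had 11.1 ± 0.369 CPM in myc2 and 70.5 ± 4.04 CPM in Col-0, 6.36-fold lower (edgeR adjusted p = 5.77e-10). FRK1, a receptor-like kinase widely used as a flagellin-response marker, rose 4.73-fold, to 3.99 ± 0.624 CPM in myc2 against 0.863 ± 0.309 CPM in Col-0 (edgeR adjusted p = 2.72e-05). WRKY29 had a log2 fold change of 1.07 (edgeR adjusted p = 0.0138), at 1.32 ± 0.391 CPM in myc2 and 0.621 ± 0.0588 CPM in Col-0. CYP81F2, an enzyme of indole glucosinolate modification, was the other higher marker (log2 fold change 0.89, edgeR adjusted p = 0.0111).

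**Figure D4:**
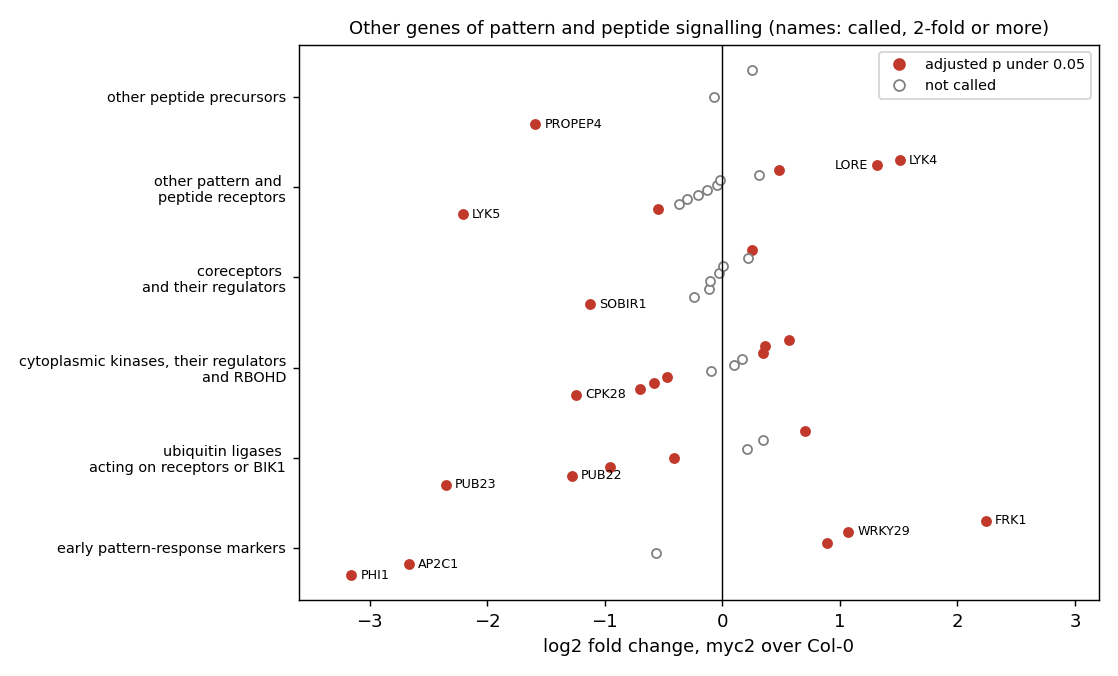
Log2 fold change (x axis, myc2 over Col-0) of the 46 tested genes of the wider list, 1 point a gene, in 6 groups by role. Filled points have an adjusted p under 0.05, and names mark the 12 changed at least 2-fold, from PHI1 at -3.15 to FRK1 at 2.24.

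Genes that respond to touch and handling moved with genotype as well. All 10 of a list of 10 were lower in myc2, with a median log2 fold change of -2.27 and a summed level of 346 to 354 CPM in myc2 and 1157 to 1198 CPM in Col-0. Over all tested genes, 18.7% were lower and the median was 0.01. This list was drawn up with earlier results of these data known, so its share is a description and no test. TCH4, a xyloglucan-modifying enzyme, had 45.6 ± 1.06 CPM in myc2 and a mean of 291 CPM in Col-0, or -2.67 on the log2 scale. WRKY40, a transcription factor, had 3.84 ± 0.378 CPM in myc2 and 59.9 ± 1.61 CPM in Col-0 (edgeR adjusted p = 8.13e-11 for each). Whether touch or handling had a part in these values, or in those of the PEPRs, FLS2 and the wider list, was not tested.

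The calls for PEPR1, PEPR2 and FLS2 held in each of the settings in which they could be tested. PEPR1 was called in 16 of 16, with log2 fold changes of -0.90 to -0.82. PEPR2 was called in 15 of 15, with -1.30 to -1.02 (adjusted p up to 0.00461), and FLS2 in 15 of 15, with 1.63 to 1.71 (adjusted p up to 0.000289). Leaving out any of the 6 libraries changed none of these 3 calls.

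**Figure D5:**
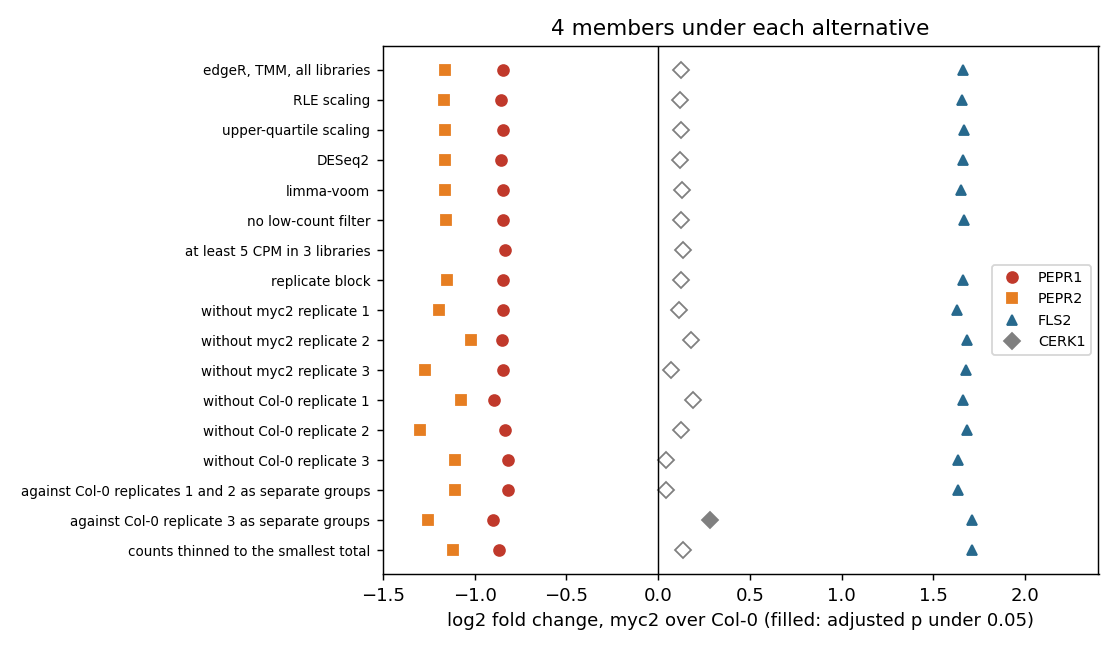
Log2 fold change (x axis, myc2 over Col-0) of PEPR1, PEPR2, FLS2 and CERK1 in the first fit and 16 other settings (y axis), filled where the adjusted p is under 0.05. PEPR1 stays between -0.90 and -0.82 and FLS2 between 1.63 and 1.71, and CERK1 is filled in 1 setting.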

How the data were processed

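RNA of the 6 samples was made into libraries with an Illumina TruSeq kit. The submitters' processing notes name fastp, HISAT2, SAMtools and StringTie with TAIR10. Versions, the counting tool, strand handling and the release of the gene models are not stated in the sources used here. The authors deposited whole-number read counts per gene and library, not normalized. A further table with their own comparison (mean, log2 fold change, standard error, score, p-values) was not used.

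In edgeR 4.0.16 (R 4.3.3), filterByExpr kept the genes, TMM gave the scaling, and a robust quasi-likelihood F-test had genotype as its one term. Benjamini-Hochberg adjustment covered the 18961 genes tested, called at 0.05. RPKM used exon lengths of TAIR10.1, in which 28009 of 28775 identifiers were found. The calculations were tested on simulated data. The lowest total was 21165967 counts, and replicate pairs differed by more than sampling noise (chi-square per degree of freedom 2.51 to 20.9).

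The ratio of 2 members of like role was tested by exact permutation on log2 ratios of counts, with 0.5 added. Alternatives were other scalings and filters, DESeq2 1.42.0, limma-voom (limma 3.58.1), a replicate block, each library left out, the Col-0 runs as separate groups and thinned counts. Members and lists were chosen with earlier results of these data known. The rule for names took all members, up to 2 genes per role group by adjusted p plus those called and changed at least 2-fold, and up to 2 touch genes. It also took the 3 genes most like PEPR1. Other list genes (PROPEP5 to PROPEP8, MIK2, RLP23, RLP30, the SERKs, PBL1, PBL27, BSK1, XLG2, PCRK1, PUB24 to PUB26, CYP81F2, NHL10) and neighbouring genes were named outside that rule, after their values were seen.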

Additional observations from a re-analysis of the deposited data

How the results depend on the processing

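With at least 5 CPM in 3 libraries required, the count of members called higher was 0 and lower 1, since FLS2 and PEPR2 were no longer among the genes tested, and the wider list had 6 genes higher. Against Col-0 replicate 3 as a separate group, 2 members were higher, the added one being CERK1 (0.28), where the lone library was assumed to vary like the others. Adding 5 reads instead of 0.5 moved the difference in log2 ratio to 0.042 for PROPEP1 to PROPEP2 (-0.99 with 0.5) and to 0.42 for PROPEP2 to PROPEP3 (2.16 with 0.5). Without 1 library in turn, members higher stayed at 1 and lower at 2, the touch list at 0 higher and 10 lower, and the wider list had 8 to 13 higher and 13 to 16 lower. Over all genes, 2351 to 4082 were higher and 2662 to 4335 lower.

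Replicate numbers did not pair the samples, as the deviations of same-numbered libraries correlated at -0.0249 to 0.0229. With a replicate block, 1 member was higher and 2 lower, the wider list had 10 higher and 16 lower, the touch list 0 and 10, and all genes 3242 and 3397. The 8 tested members kept their direction in every setting that tested them. Depth limits PROPEP2, PROPEP3 and, at about 1 CPM, EFR.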
